A study of Mus musculus with 10 samples.

Results

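Aquaporins are membrane channels for water, and some of them also carry glycerol or other small solutes. Each channel is folded so that a narrow pore lets neutral molecules pass and holds back protons, and the channels sit in the membrane as groups of identical subunits. In hepatocytes, the parenchymal cells of the liver, Aqp8 lies at the bile canaliculus and in intracellular membranes, including the inner mitochondrial membrane, and is known for water movement into bile and for passage of hydrogen peroxide and ammonia. Aqp9 lies on the blood side of the hepatocyte and takes up glycerol, and Aqp11 is an intracellular member of the family found in the endoplasmic reticulum.

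The genes described here are 8 aquaporins, Aqp8, Aqp1, Aqp3, Aqp4, Aqp5, Aqp7, Aqp9 and Aqp11. They were represented by 10 probes that the array annotation assigns to a single gene, out of 36088 tested probes for 18012 genes. Aqp4 and Aqp9 had 2 probes each, and the other 6 genes had 1. The set was chosen because the Aqp8 value was about 3-fold lower in treated livers. The ASO against saline values of Aqp8 are therefore a description and carry no test, and those of the other members come from the same comparison and are given in the same way.

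The study measured liver RNA on 1-colour CodeLink arrays, with 1 array per mouse. Livers came from 5 male C57Bl/6 mice injected intraperitoneally with an antisense oligonucleotide (ASO) to the microRNA miR-122 at 50 mg/kg, and from 5 mice injected with saline. Both groups were dosed 2 times a week for 4 weeks and killed 2 days after the final dose. The ASO had 2′-O-methoxyethyl sugars and a phosphorothioate backbone, chemistry that keeps it stable in tissue. The labels of the saline mice state neither strain nor sex, and no age is given for either group. The control was saline and not another oligonucleotide, so the presence of an oligonucleotide and the block of miR-122 cannot be told apart. The livers were measured as whole tissue, in which fewer cells of a type and less RNA per cell cannot be told apart.

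Intensities are on the linear scale of the deposited table, where the median of all probes was 1.03 to 1.05 on each array. Of 9 measured hepatocyte markers, all lay above the median level of all probes, and their summed intensity was 6458 to 8667 in ASO livers and 3271 to 7629 in saline livers. Saline replicate 1 had a maximum of 542 where the other arrays had maxima of 1198 to 2333, and no aquaporin value came near it. The 5 hepatocyte markers with a mean above that maximum, Alb, Apoa1, Apoa2, Ttr and Cyp2e1, read 464 to 482 on saline replicate 1 and 792 to 1659 on the other arrays. Without that array the summed hepatocyte markers were 5140 to 7629 in saline livers. Tests were made with limma and called at an adjusted p under 0.05 (Benjamini-Hochberg, all 36088 probes), and 23 probes (0.0637%) passed. Leaving out a single array brought that count to between 0 and 16, and every array moved it by more than 1.5 times except ASO replicate 1, without which it was 16. Without ASO replicates 2, 3, 4 and 5 the count was 10, 0, 1 and 1, and without saline replicates 1 to 5 it was 1, 0, 3, 2 and 2.

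None of the 10 aquaporin probes passed in limma, and 2 had an unadjusted p under 0.05, against 11.2% of all probes. The same 2 probes were those in which the groups did not overlap, against 2.37% of all probes. Both of these 2 of the 10 were apart and lower in ASO livers, against 1.43% of all probes. Over all probes with groups apart, 515 of 854 were lower. The 2 aquaporin probes were the Aqp8 probe and 1 of the Aqp4 probes. Because Aqp8 was picked from this comparison, nothing is read from that count. The median log2 fold change of the 10 probes, ASO minus saline, was -0.01, and it was 0.02 over the 9 probes without Aqp8, beside -0.0029 over all probes.

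Aqp8 had intensities of 21.8, 20.2, 15.1, 8.13 and 13.1 in ASO replicates 1 to 5, and of 59.4, 40.9, 48.7, 35.3 and 42.9 in saline replicates 1 to 5. Each ASO liver lay below every saline liver, and the highest ASO value was well under the lowest saline value. The mean was 15.7 ± 5.53 in ASO livers and 45.4 ± 9.16 in saline livers (SD, n = 5 each). On the log2 scale the mean was 3.89 ± 0.57 in ASO livers and 5.48 ± 0.28 in saline livers. The ASO livers thus had the larger SD on the log2 scale and the smaller SD on the linear scale. ASO minus saline was -1.59 ± 0.27 (log2, SE), which is 3.02-fold lower in ASO livers. Of all tested probes, 61 had a more negative log2 fold change.

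ASO replicate 4 held the lowest Aqp8 value of all livers and saline replicate 1 the highest. Without ASO replicate 4 the log2 fold change was -1.38, and without saline replicate 1 it was -1.49. Over the leave-outs of each array it stayed between -1.73 and -1.38, and over 7 other settings of scaling, floor, filter and spread between -1.59 and -1.43.

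**Figure D1:**
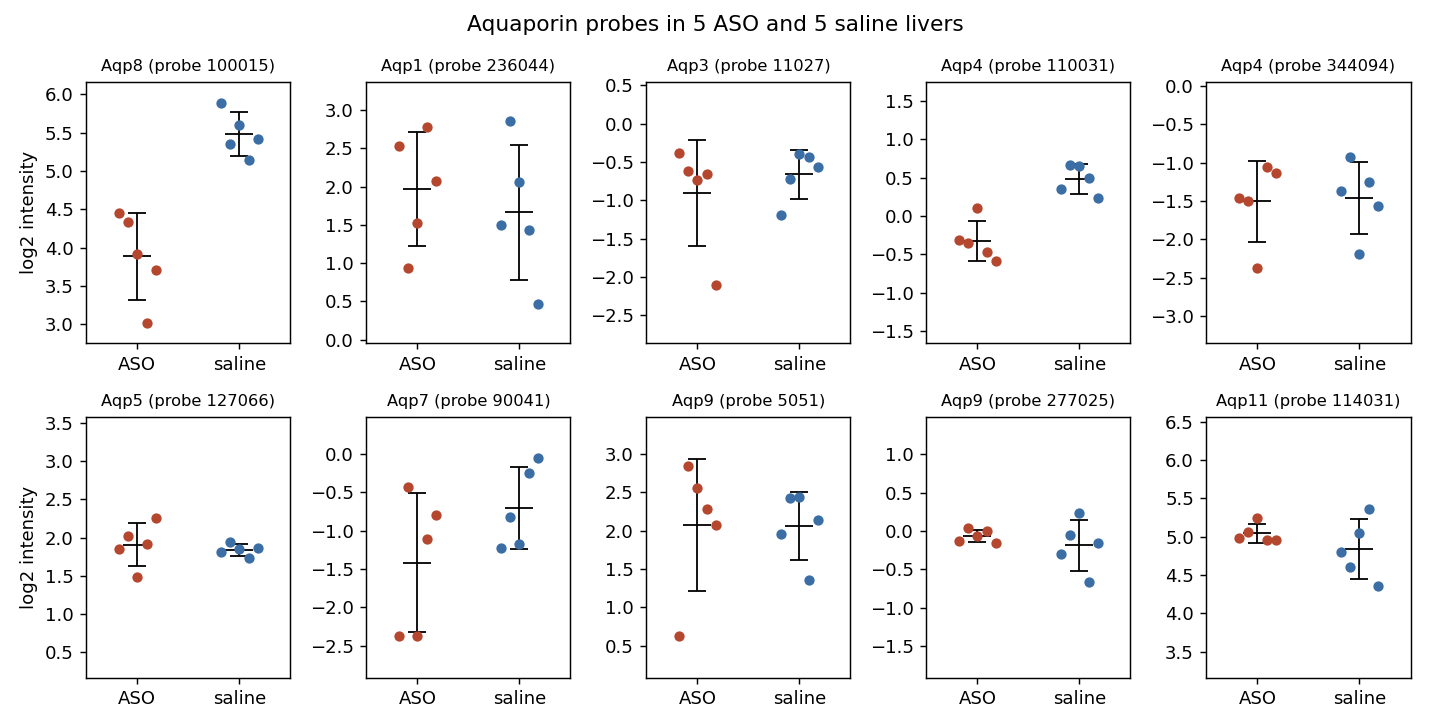
Log2 intensity of each of the 10 aquaporin probes (numbers in brackets are the array's probe names), with 1 point per liver, ASO at left and saline at right; bars are the mean ± SD of 5 livers. The panels have their own centres and the same span unless values needed more. The groups are apart for Aqp8 and for Aqp4 probe 110031 and overlap in the other 8 panels.

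The window around the start of the Aqp8 gene is shown because the set was chosen on Aqp8, with that of Aqp11 beside it as a member whose groups overlapped. Both come from RefSeq on build GRCm38.p6 and run 5′ to 3′ on the gene's strand, from 250 bases before the start to 50 after it. Aqp8 lies on the plus strand at chr7:123462044-123462343 and Aqp11 on the minus strand at chr7:97738198-97738497. Capitals mark matches, on either strand, to any of 5 searched motifs. The E-box was searched as CACGTG and the half-site of nuclear receptors as AGGTCA. The core promoter elements were the box of letters TATAAA and the box of letters CCAAT. Forkhead factors were represented by the letters TGTTTNC. No match overlapped another in these windows.
Aqp8: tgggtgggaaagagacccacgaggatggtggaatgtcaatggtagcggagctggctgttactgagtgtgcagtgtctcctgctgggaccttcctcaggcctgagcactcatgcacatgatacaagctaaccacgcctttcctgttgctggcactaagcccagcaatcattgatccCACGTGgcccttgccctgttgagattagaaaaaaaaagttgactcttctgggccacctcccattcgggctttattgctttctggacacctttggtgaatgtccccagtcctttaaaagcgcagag
Aqp11: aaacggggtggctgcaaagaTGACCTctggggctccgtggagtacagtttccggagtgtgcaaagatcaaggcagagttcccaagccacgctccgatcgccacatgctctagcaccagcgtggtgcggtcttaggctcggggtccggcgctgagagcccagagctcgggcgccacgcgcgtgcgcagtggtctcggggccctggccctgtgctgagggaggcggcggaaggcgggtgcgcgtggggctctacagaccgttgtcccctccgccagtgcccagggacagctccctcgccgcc

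The Aqp8 window held 1 of the searched motifs, an E-box starting at position -75 from the gene's start. Of 32851 promoter windows of that length, 7.15% held it, among them that of Aqp5, at position -87, whose groups overlapped. The Aqp11 window held 1 nuclear receptor half-site, on the opposite strand, at position -230. That motif was found in 16.3% of windows and also in both Aqp7 windows, which overlap and have a site in common. TATAAA was present in 13.6% of windows and, among the aquaporins, in that of Aqp3. CCAAT was in 37.4% of all windows and in none of the 9 aquaporin windows, which covered 7 of the 8 genes. The forkhead motif was in 20.5% of windows and in both windows of Aqp9. The GC content was 52.0% in the Aqp8 window and 68.0% in that of Aqp11, beside a median of 52.7% over all windows. A match describes the letters only.

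Genes that lie beside Aqp8 on its chromosome did not pass in limma. Lcmt1, the next protein-coding gene on one side and a methyltransferase of protein phosphatase subunits, had a log2 level of 3.43 ± 0.20 in ASO livers and 2.97 ± 0.41 in saline livers (SD, n = 5 each; limma adjusted p = 0.444). Arhgap17 had a log2 fold change of 0.11 ± 0.21, and Slc5a11, a transporter of sodium and inositol, -0.21 ± 0.36. On the other side, Hs3st4 was at 0.60 ± 0.29 (SE), and Zkscan2 had no single-gene probe among those tested.

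Aqp9 and Aqp11, the other members known in hepatocytes, had overlapping groups. Aqp11 had intensities of 31.7, 33.5, 38.0, 31.2 and 31.1 in ASO replicates 1 to 5, and of 28.0, 24.4, 32.9, 41.3 and 20.4 in saline replicates 1 to 5. All 5 ASO livers lay inside the saline range, and the ASO livers were the closer together, with a log2 SD of 0.12 against 0.39. The log2 fold change was 0.21 ± 0.20 (SE), and 0.09 without saline replicate 5 and 0.38 under quantile normalization.

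Aqp9 was measured by a probe made on a RefSeq mRNA and by another made on a different GenBank sequence. At the RefSeq probe the intensities were 1.54, 7.18, 5.89, 4.87 and 4.22 in ASO replicates 1 to 5, and 3.86, 5.39, 5.40, 2.55 and 4.42 in saline replicates 1 to 5. ASO replicate 1 was the lowest liver and ASO replicate 2 the highest, so the ASO group reached past the saline group on both sides. The log2 fold change was 0.02 ± 0.38 (SE); it was 0.38 without ASO replicate 1 and -0.18 without ASO replicate 2, and its sign was opposite to 0.02 in 6 of 17 settings. At the other probe, whose values lay at 0.900 to 1.02 in ASO livers and 0.631 to 1.18 in saline livers, near the array median, it was 0.12 ± 0.18.

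The 2 Aqp9 probes deviated from their group means in the same direction, with Pearson's r = 0.56 and Spearman's rho = 0.75 over 10 livers, and r = 0.86 after the 2 livers farthest from the mean at the RefSeq probe were left out. These points share their arrays.

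Aqp4, the water channel of astrocyte end-feet that is also known in cholangiocytes, gave different pictures at its 2 probes. The first was made on a GenBank entry other than a RefSeq mRNA, and where that sequence lies relative to the Aqp4 mRNA was not checked. Its intensities were 0.805, 0.781, 1.07, 0.723 and 0.667 in ASO replicates 1 to 5, and 1.27, 1.59, 1.57, 1.41 and 1.17 in saline replicates 1 to 5. The groups did not overlap, and the whole range sat close to the array median. The log2 fold change was -0.80 ± 0.18 (SE), between -0.91 and -0.74 over the leave-outs. With a pseudocount of 1 in place of the floor it was -0.41, since a pseudocount draws in the differences of dim probes.

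At the Aqp4 probe made on the RefSeq mRNA, intensities were 0.0483 to 0.483 in ASO livers and 0.218 to 0.527 in saline livers, below the array median in all 10 livers. There the groups overlapped and the log2 fold change was -0.04 ± 0.29 (SE), with ASO replicate 3, at 0.0483, set to the floor. It was -0.44 with no floor and 0.17 without that liver. Over the 10 livers, deviations from the group means at the 2 Aqp4 probes had r = -0.59 and rho = -0.27, and r = -0.15 without the 2 livers farthest from the mean at the other probe. No detection calls were used here, so whether either probe measured Aqp4 mRNA in these livers was not tested. Astrocyte markers had a median log2 fold change of -0.11 (1 higher, 3 lower). Gfap, low in saline replicate 4 within its group, had -0.09 ± 0.20, Aldh1l1, which hepatocytes also express, -0.14 ± 0.21 and Slc1a3 -0.12 ± 0.24. The list's summed intensity, most of it from Aldh1l1, was 335 to 622 in ASO livers and 386 to 614 in saline livers.

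**Figure D2:**
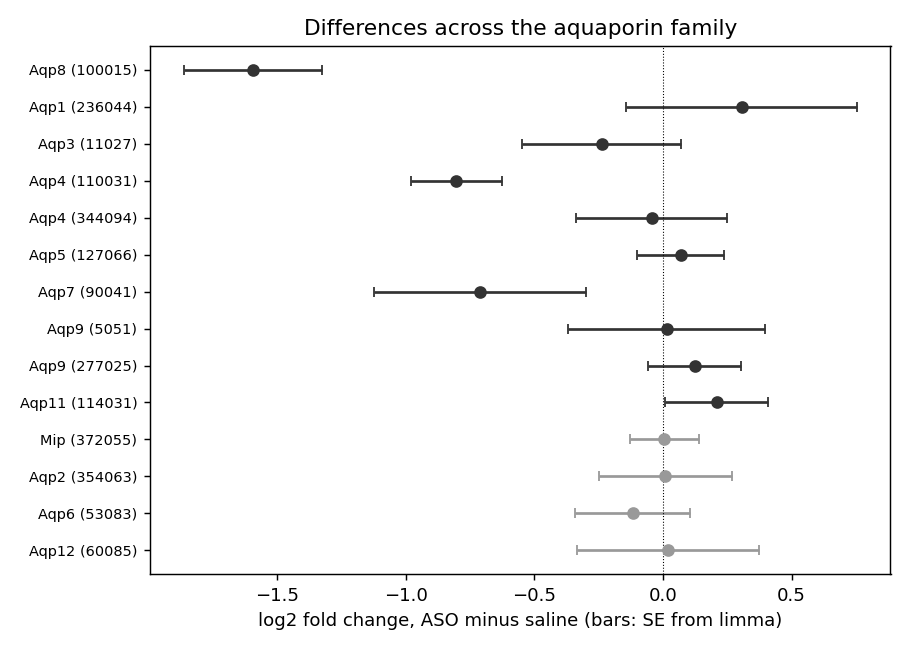
Log2 fold change, ASO minus saline, of each single-gene probe of the aquaporin family (8 chosen genes in black, 4 further family members in grey), with the standard error from limma; n = 5 livers per group. Aqp8 lies at -1.59, and the 2 Aqp4 probes lie at -0.80 and -0.04.

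Aqp1, a water channel of red blood cells, capillary endothelium and bile duct cells, varied strongly within both groups. Its intensities were 5.78, 1.92, 2.87, 6.86 and 4.19 in ASO replicates 1 to 5, and 2.82, 7.24, 4.18, 2.70 and 1.38 in saline replicates 1 to 5. All ASO livers fell inside the saline range, which ran from the lowest to the highest value of all 10 livers. The log2 fold change was 0.31 ± 0.45 (SE), and it ran from 0.01 without saline replicate 5 to 0.60 without saline replicate 2.

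Markers of the cells known to carry Aqp1 also overlapped between groups. The summed intensity of 11 endothelial markers was 55.3 to 168 in ASO livers and 73.7 to 136 in saline livers, that of 9 bile duct markers 11.8 to 16.6 in ASO livers and 11.3 to 15.6 in saline livers, and that of 5 red blood cell markers 40.0 to 104 in ASO livers and 66.6 to 123 in saline livers. Median log2 fold changes were 0.07 for the endothelial list (7 higher, 4 lower), 0.02 for the bile duct list (5 higher, 4 lower) and -0.15 for the red blood cell list (2 higher, 3 lower). Over the settings they ran from -0.04 without saline replicate 4 to 0.29 without ASO replicate 2 for the endothelial list, and from -0.08 without saline replicate 1 to 0.10 without saline replicate 3 for the bile duct list. The red blood cell median ran from -0.41 with only probes above the median level to 0.07 without ASO replicate 2. The named endothelial genes were Cdh5 (log2 fold change 0.87 ± 0.28), Vwf (0.24 ± 0.21) and Stab1 (0.49 ± 0.32). Among bile duct genes Krt19 had -0.62 ± 0.24, Cldn7 0.32 ± 0.19 and Tff2 0.51 ± 0.24, and among red blood cell genes Alas2 had -0.51 ± 0.29, Slc4a1 0.27 ± 0.19 and Ermap -0.41 ± 0.19. None of these passed in limma, and the part of these cells in the Aqp1 values was not tested.

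Aqp5, the water channel of salivary, tear and airway glands, had the narrowest saline group of the 10 probes on the log2 scale (SD 0.08). Its intensities were 3.60, 4.07, 2.80, 3.77 and 4.78 in ASO replicates 1 to 5, and 3.51, 3.84, 3.60, 3.32 and 3.62 in saline replicates 1 to 5. ASO replicates 2 and 5 lay above all saline livers and ASO replicate 3 below them. The log2 fold change was 0.07 ± 0.17 (SE), and -0.02 without ASO replicate 5.

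Aqp3 and Aqp7, both channels for glycerol as well as water and neighbours on their chromosome, lay below the array median in all 10 livers. Aqp3 is known from skin and kidney and Aqp7 from fat cells, where it lets glycerol out. Aqp3 had intensities of 0.232 to 0.771 in ASO livers and 0.439 to 0.759 in saline livers, with ASO replicate 5 far below the others. Its log2 fold change was -0.24 ± 0.31 (SE), and 0.06 without that liver.

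Aqp7 had intensities of 0.178, 0.742, 0.141, 0.464 and 0.578 in ASO replicates 1 to 5, and of 0.427, 0.568, 0.443, 0.840 and 0.961 in saline replicates 1 to 5. ASO replicates 1 and 3 lay under the floor of 0.192 that was used for the log scale, and the other 3 ASO livers lay inside the saline range. ASO minus saline was -0.71 ± 0.41 (log2, SE), between -0.96 and -0.47 over the leave-outs, and -0.22 with a pseudocount of 1 in place of the floor. The summed intensity of 6 adipocyte markers was 47.0 to 85.6 in ASO livers and 45.3 to 62.1 in saline livers, and the median log2 fold change was 0.26 (4 higher, 2 lower). That median was 0.08 without ASO replicate 4, 0.11 without saline replicate 3 and 0.06 with a pseudocount of 1. Lep, at the floor in all 5 saline livers, was at 0.31 ± 0.21, Pparg at 0.31 ± 0.26 and Cidec at -0.30 ± 0.20. For Cidec, ASO replicate 5 lay above the rest of its group. Of the 6 adipocyte markers, 3 lay above the median level of all probes, and Lep was not among them. The summed intensity of the 5 keratinocyte markers was 1.24 to 2.14 in ASO livers and 1.35 to 2.23 in saline livers, with no marker above the median level of all probes, and the median log2 fold change was 0.11 (3 higher, 2 lower; -0.25 with no floor, -0.08 without ASO replicate 5). Among them Krt5 had a log2 fold change of 0.52 ± 0.26, Krt1 -0.37 ± 0.43 and Krt10 -0.36 ± 0.22.

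The remaining 4 family members on the array lay below the array median in all livers, with a median log2 fold change of 0.01 (3 higher, 1 lower). Mip, the lens channel, was under the floor in 7 of 10 livers. Aqp2, the vasopressin-controlled channel of the kidney collecting duct, had 0.232 to 0.536 in ASO livers and 0.250 to 0.449 in saline livers, and a log2 fold change of 0.01 ± 0.26. Aqp6, an intracellular channel of kidney cells, had -0.12 ± 0.22, and Aqp12, known from acinar cells of the pancreas, 0.02 ± 0.35. Aqp2, Aqp5 and Aqp6 follow one another on their chromosome.

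Acinar cells of the pancreas also carry Aqp8, so their markers were set beside it. The summed intensity of 13 measured markers was 7.85 to 10.7 in ASO livers and 7.35 to 10.4 in saline livers, and 11 of the 13 lay at or below the median level of all probes. The 2 above it, named after their values were seen, were Reg1 and Ptf1a. The median log2 fold change of the 13 was 0.07 (10 higher, 3 lower; -0.02 without saline replicate 1, 0.28 without saline replicate 5). The named genes were Cel (-0.84 ± 0.36, its saline replicate 4 above the rest of that group), Cela3b (0.33 ± 0.21) and Amy2a5 (0.59 ± 0.24), all dim. The part of such cells in the Aqp8 values was not tested.

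After each group's mean was taken off, Pearson's r over the 10 livers ran from -0.68 to 0.63 over the 45 pairs of probes, with a median of -0.04. The lowest was that of Aqp4 probe 110031 with Aqp5, and it was 0.17 without the 2 livers farthest from the mean at the Aqp4 probe. The highest was that of the RefSeq Aqp4 probe with Aqp5, and it was 0.33 on leaving out 2 livers in the same way. For the 9 pairs that include Aqp8 r ran from -0.36 to 0.15, and from -0.31 to 0.57 without the 2 livers with the largest Aqp8 deviations. These correlations describe points that share their arrays.

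The genes most like Aqp8 in the same sense, among 11438 probes above the median level, were Nfat5 (r = 0.95, rho = 0.96), a transcription factor of the response to hypertonic stress, Lgi3 (0.95 and 0.92), Tbck (0.94 and 0.92), Pogz (0.93 and 0.90) and Ado (0.93 and 0.84), an oxidase of cysteamine. Their deviations followed ASO replicate 4, which was lowest for Aqp8 and for all 5. Without ASO replicates 1 and 4, the 2 livers with the largest Aqp8 deviations, r was 0.84 to 0.91. Of the 5 genes, 1 then stayed among the top 5, Lgi3. With Spearman's rho as the measure 1 of the 5 also stayed, a different gene, Nfat5. The log2 fold changes of the 5 ran from -0.25 to 0.19, against -1.59 for Aqp8. The r values of the 5 were picked as the highest among the 11438 probes, over points that share their arrays. They are a description and carry no test.

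Further genes were described from 14 lists, each gene by its probe with the highest mean. The lists hold genes that work beside the aquaporins in the hepatocyte. They also hold the other family members and markers of hepatocytes and of other cells, so shares over all lists do not describe the hepatocyte lists alone. Of the 127 distinct genes measured on all lists, none passed the adjusted threshold in limma, beside 0.0888% of all 18012 genes taken by the same rule. An unadjusted p under 0.05 was found for 15 (11.8%), beside 12.5% of all genes. Of the 127, 13 had such a p and were lower in ASO livers, beside 8.26% of all genes. Such genes were 2 of 13 on the bile transport list, 1 of 11 for glycerol and 3 of 11 for urea cycle and ammonia. They were 4 of 13 for hydrogen peroxide and 1 of 15 for reported regulators. No gene on these lists had such a p and was higher. Among only the genes with such a p, 13 of the 15 were lower, beside 1487 of 2245 over all genes. The groups did not overlap for 4 of the 127, beside 2.68% of all genes. The same 4 of the 127 were apart and lower in ASO livers, beside 1.72% of all genes. Of these 4, 2 were on the hydrogen peroxide list, 1 on the urea cycle and ammonia list and 1 among the reported regulators. Among only the genes with groups apart, all 4 were lower, beside 310 of 483 over all genes. Of all genes, 55.0% had a negative log2 fold change. The median log2 fold change over all genes by the same rule was -0.04.

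Transporters of bile acids and other solutes at the canalicular and the blood-side membrane of the hepatocyte had a median log2 fold change of -0.20 (9 of 13 lower; -0.35 to -0.06 over the settings). Abcc3, an exporter on the blood side, was at 3.61 ± 0.50 in ASO livers and 4.44 ± 0.28 in saline livers (log2 level, SD, n = 5 each), a log2 fold change of -0.82 ± 0.25 (SE). Slc4a2, the chloride and bicarbonate exchanger that drives water into bile, had -0.61 ± 0.26, and Abcb11, the bile salt export pump, -0.50 ± 0.24. The groups overlapped for all 13.

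Genes that handle hydrogen peroxide, a solute Aqp8 can carry, had a median of -0.30 (11 of 13 lower, beside 55.0% of all genes; -0.35 to -0.19 over the settings). Most of them remove it, while Sod1 (log2 fold change 0.07) and Sod2 (-0.30) are superoxide dismutases, which form it. Gpx1, a glutathione peroxidase, was at 6.88 ± 0.27 in ASO livers and 7.44 ± 0.11 in saline livers (log2 level, SD, n = 5 each), and Txn2, the mitochondrial thioredoxin, at 3.32 ± 0.40 in ASO livers and 4.01 ± 0.11 in saline livers. In these 2 of the 13 genes the groups did not overlap, beside 2.68% of all genes. Txnrd1, a thioredoxin reductase, had a log2 fold change of -0.80 ± 0.24 (SE) and overlapping groups. The limma adjusted p was 0.258 for Txn2, 0.273 for Txnrd1 and 0.276 for Gpx1.

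Urea cycle and ammonia genes had a median of -0.07 (7 of 11 lower), which was 0.03 under quantile normalization and -0.20 without ASO replicate 5. Cps1, Ass1 and Gls2, also on that list, had no single-gene probe among those tested. Asl, which splits argininosuccinate, had a log2 fold change of -0.70 ± 0.22 (SE), and Rhbg, an ammonia channel, -0.36 ± 0.16, with ASO replicate 2 above the rest of its group. Nags, which makes the activator of the urea cycle's entry enzyme, had -0.44 ± 0.17, and its groups did not overlap. The limma adjusted p was 0.279 for Asl and 0.359 for Nags.

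Genes of glycerol release and use, the solute of Aqp3, Aqp7 and Aqp9, had a median of -0.16 (7 of 11 lower), which was -0.01 under quantile normalization. Gk and Gpd1, also on that list, had no single-gene probe among those tested. Fbp1, a gluconeogenic phosphatase, had a log2 fold change of -0.72 ± 0.28 (SE), Agpat2, which acylates lysophosphatidic acid, -0.57 ± 0.27 and Mgll, the monoglyceride lipase, -0.54 ± 0.27. None of the 3 had groups apart.

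Of 15 measured genes for factors and receptors with reported links to aquaporin expression in liver, 8 were higher and 7 lower, with a median of 0.12 (0.20 under quantile normalization, -0.02 without saline replicate 5). Srebf1, a transcription factor of lipid synthesis, was at -0.27 ± 0.57 in ASO livers and 1.06 ± 0.35 in saline livers (log2 level, SD, n = 5 each). Its groups did not overlap (limma adjusted p = 0.137). The median level of all probes, 0.03 on that scale, lay between these means, so the Srebf1 probe was dim. Ppara, the fatty acid receptor, had a log2 fold change of 0.39 ± 0.24, with ASO replicate 5 below the rest of its group, and Foxa2, a forkhead factor of liver, 0.31 ± 0.23. For the 9 hepatocyte markers the median was 0.41 (6 higher, 3 lower), 0.04 after quantile normalization and 0.16 without saline replicate 1, with Alb at 0.57 ± 0.27, Apoa1 at 0.50 ± 0.26 and Arg1 at -0.32 ± 0.16.

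**Figure D3:**
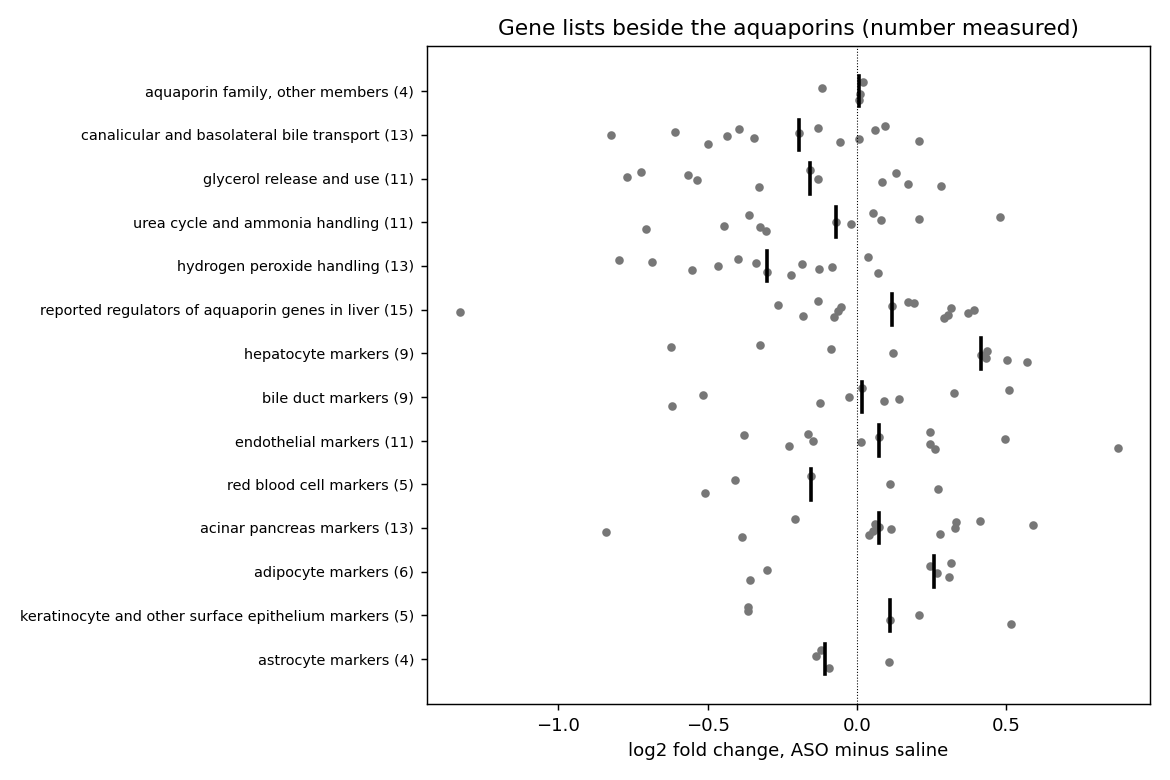
Log2 fold change, ASO minus saline, of each measured gene (points) on the 14 lists, with the list's median as a vertical bar and the number of measured genes in brackets. No point passed the adjusted threshold in limma; the lowest point is Srebf1 at -1.33.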

How the data were processed

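Array intensities were deposited on a linear scale, 1 array for each of 10 livers. Their medians were alike between arrays, and each array held 74 to 377 values that were not above 0. Labelling followed the CodeLink assay, per the labels' protocols, and the scanner software, background subtraction and scaling are not stated there. The number of arrays limits the precision.

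Probes with fewer than 3 values in a group were left out (139 of 36227). A floor at the 10th percentile of the positive values (0.192) was applied before taking log2, so differences of dim probes are understated. ASO minus saline was fitted with limma 3.58.1 in R 4.3.3 over all 10 arrays, without covariates and two-sided; the procedure was tested on simulated data. The annotation named 1 gene for 21615 probes, and 21487 of them matched by gene ID to a table of assembly GRCm38.p6, where 0 symbols changed.

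The members, lists, motifs and tests were chosen with earlier results of these data known. Every single-gene member probe is given, and from each of the 14 lists the 3 measured genes with the smallest adjusted p; Aqp2, Sod1, Sod2, 3 hepatocyte markers and the genes beside Aqp8 were added to that rule. The genes most like Aqp8 were the 5 named genes above the median level with the highest Pearson correlation of deviations from group means. Alternatives were cyclic loess or quantile normalization, a pseudocount or no floor, array weights, a trended and robust eBayes, a filter to probes above the median level, leaving out each array and, for lists, the mean of a gene's probes.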

Additional observations from a re-analysis of the deposited data

Results flagged for a closer look

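In groups of 5 livers without a value at the floor, 6 of 89 groups had a liver whose gap to its nearest neighbour took up most of the group's log2 range, and chance gives about 1 such group in 20. The member among them was Aqp3, where ASO replicate 5 was at -2.11 and the other ASO livers at -0.73 to -0.38. ASO replicate 5 was also low for Ppara (2.41, the others 2.91 to 2.97) and high for Cidec (3.70, the others 2.80 to 3.01). ASO replicate 2 was high for Rhbg, at 3.90 against 3.42 to 3.53. Saline replicate 4 was high for Cel (-0.32, the others -0.51 to -0.46) and low for Gfap (2.21, the others 2.52 to 2.60).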

How the results depend on the processing

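The count of probes passing among all probes, 23 as reported, was 39 under cyclic loess normalization, 7 with no floor, 73 with only probes above the median level and 42 with eBayes with trend and robust, and 0 to 16 when 1 array was left out. The count among the 10 aquaporin probes, 0 as reported, was 1 with only probes above the median level, where fewer probes were tested. It was also 1 with trend and robust, and 0 in the other settings, leave-outs included. In both cases the probe was Aqp8, which was picked from this comparison, so nothing is read from that count. The sign of the difference was the reported one for Aqp8, Aqp1, Aqp7, Aqp11, the second Aqp9 probe and the Aqp4 probe with groups apart in every setting that gave a value. It turned for the RefSeq probes of Aqp9 (6 of 17 settings) and Aqp4 (3 of 16), and for Aqp3 (1 of 16) and Aqp5 (1 of 17). Probes below the median level give no value in the setting that drops them. Of the 5 genes most like Aqp8, 1 stayed under each alternative measure, and it was not the same gene. List medians near 0 changed sign most often, in 13 of 17 settings for the other family members, 6 of 18 for bile duct markers and 4 of 17 for keratinocyte markers. They did so in 2 of 18 for acinar and for red blood cell markers and in 1 of 18 for endothelial markers, astrocyte markers, urea cycle genes and reported regulators. The medians of the remaining 5 lists kept their sign in all 18. No paired analysis was possible because the labels give no number or other mark that links a treated mouse to a saline mouse.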
